A study of Mus musculus with 32 samples.

Results

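The genes described here are Cdkn1a and 8 others that belong to the p53 pathway: Mdm2, Ccng1, Bax, Zmat3, Phlda3, Trp53inp1, Sesn1 and Trp53, which encodes p53 itself. They were taken by name, with no measured value in the rule, but with earlier results of these data known. All 9 were among the 11818 genes of the count table and passed the filter on low counts. The study asked how the secretome of lung fibroblasts, and osteoglycin (OGN) as one of its proteins, changes the 2 cell populations of a mouse lung organoid. Freshly isolated CD31-/CD45-/Epcam+ lung epithelial cells of C57BL/6 J mice aged 8 to 14 weeks were embedded in Matrigel with an equal number (300000) of CCL206 cells. The cultures of 4 mice each received vehicle, extracellular vesicles (EVs, 1000000000 particles per mL), soluble factors (SFs, 30 µg/mL) or recombinant OGN (10 µg/mL), and after 72 hours CD326 microbeads separated Epcam+ cells from fibroblasts again. This gave 8 groups of 4 libraries, 1 per mouse, and 32 libraries in all.

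Several features of the model touch these genes. CCL206 is 1 mouse lung fibroblast line, so the fibroblasts of all 4 mice's cultures share 1 source and differ only by culture. Their proliferation had been stopped before culture with mitomycin C (10 µg/mL for 2 hours), an agent that cross-links DNA, and this held for all 8 groups, vehicle included. Only the fibroblasts were exposed to it, so cell type and mitomycin C cannot be told apart in a comparison of the populations. EVs and SFs came from MRC5 cells, a human fetal lung fibroblast line. Because each library is a bulk of cells, fewer cells of a type and less RNA per cell cannot be told apart.

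p53 is a transcription factor that accumulates when DNA is broken or a cell is otherwise stressed. It binds DNA as a tetramer at paired half-sites and raises genes that stop the cell cycle, start apoptosis, aid repair and switch p53 off again. In the lung, p53 and its targets are studied in epithelial progenitors after injury and in fibroblasts that have ceased to divide. Much of p53's control acts on the protein and not on its mRNA, so transcripts of target genes are a usual readout of the pathway.

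Since the 9 genes share p53 as a regulator, the DNA before their start sites is shown where it holds the p53 half-site consensus (10 bases: a core of C, A or T, A or T and G, with purines before it and pyrimidines after it). RefSeq promoter windows on GRCm38.p6, from 250 bases before to 50 bases after each start site, were at hand for 7 of the 9 genes, as 9 windows. Zmat3 and Trp53inp1 had no entry. Because the consensus reads the same on both strands, 1 search covers both. A half-site with no mismatch was found for 6 of the 7 genes, in 6 of their 9 windows, while 8.36% of the 32851 windows of all genes held one. The Cdkn1a window at the more upstream of its 2 listed start sites held 2 half-sites, and the second of them opened a 20-base match to the full consensus with 1 mismatch. A 20-base match with at most 2 mismatches and both cores intact occurred in 0.158% of all windows (52), and among these genes only in that one. The 120 bases before this Cdkn1a start site (chr17:29090859-29090978, plus strand), with the half-site at -73 and the 20-base match at -51 in capitals, read:
Cdkn1a: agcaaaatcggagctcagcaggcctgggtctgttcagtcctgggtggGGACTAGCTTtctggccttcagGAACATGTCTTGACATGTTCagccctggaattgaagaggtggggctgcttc

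The other windows with a half-site are shown for comparison as 30 bases each on the gene's own strand, with the half-site in capitals. These lie at -186 for Mdm2 (chr10:117710925-117710954, minus strand), -185 for Ccng1 (chr11:40755452-40755481, minus strand), -201 for Bax (chr7:45467080-45467109, minus strand), -173 for the second start site of Sesn1 (chr10:41887256-41887285, plus strand) and -75 for Trp53 (chr11:69580274-69580303, plus strand).
Mdm2: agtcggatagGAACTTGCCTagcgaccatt
Ccng1: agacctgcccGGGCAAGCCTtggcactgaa
Bax: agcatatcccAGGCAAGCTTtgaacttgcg
Sesn1: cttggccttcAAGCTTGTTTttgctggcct
Trp53: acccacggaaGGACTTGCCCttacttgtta
A match is a description of the letters and not evidence of binding. No match was found in the window of the other Cdkn1a start site, in that of Phlda3 or in the first of Sesn1.

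Library totals ran from 1805914 to 17675454 counts (median 5901652). The lowest count of a single library was 14 for Sesn1 and between 129 and 633 for the other genes, so Sesn1 had the least precise values. Epcam itself had a mean of 289 CPM (counts scaled by normalised library size) in vehicle-treated Epcam+ libraries and 11.5 CPM in vehicle-treated CCL206 libraries. The separation was not complete: the summed CPM of 9 fibroblast markers (of 10 in the list) in Epcam+ libraries was 18.9 to 24.1% of that in the CCL206 library of the same culture with vehicle, 26.9 to 47.1% with EVs, 22.2 to 27.3% with SFs and 16 to 20.5% with OGN. The CCL206 sum itself ran from 7830 to 13000 CPM with EVs and from 11600 to 12900 CPM with vehicle, so the share with EVs is not a measure of carry-over alone. Conversely, 14 AT2 (alveolar type 2) and epithelial markers in CCL206 libraries summed to 8.97 to 40.1% of their Epcam+ value. That Epcam+ value was itself uneven with vehicle, at 13100 to 19500 CPM. Sftpc, 1 of the 14, ran from 663 CPM (mouse 1) to 6790 CPM there, and from 3360 to 5660 CPM in the other Epcam+ groups. This share, too, is not a measure of carry-over alone. Of 8 macrophage markers 2 were present (Cd68 and Lyz2), with a sum of 185 to 253 CPM in Epcam+ vehicle libraries and 298 to 402 CPM in Epcam+ OGN libraries. This sum was nearly all Lyz2 (217 of 221 CPM on average with vehicle), a gene that mouse AT2 cells also express. Cd68 had a mean of 3.7 CPM with vehicle (1.61 to 5.61) and 5.76 CPM with OGN (2.99 to 8.03) in Epcam+ libraries. CD45+ cells had been depleted before culture. A marker missing from the table need not be absent from the cells, because an unstated filter had been applied. Whether macrophages had a part in the higher sum with OGN was not tested. Of 5 endothelial markers only Vwf was present, at no more than 5.94 CPM.

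Cdkn1a, which encodes the cyclin-dependent kinase inhibitor p21, was the most abundant of the 9 genes per transcript length in all 8 groups. With vehicle it reached 139 ± 14.7 CPM per kb (SD, n = 4) in Epcam+ cells and 249 ± 20.5 CPM per kb in fibroblasts. In Epcam+ cells Ccng1 followed with 102 ± 14.1 CPM per kb, then Bax (76 ± 9), Mdm2 (67.9 ± 5.36), Trp53 (63.6 ± 7.59) and Phlda3 (49.8 ± 7.06). In fibroblasts the next were Mdm2 (210 ± 56.1 CPM per kb) and Ccng1 (209 ± 8.97), which did not differ beyond their spread. Trp53inp1, Zmat3 and Sesn1 held the last 3 places in every group, with Sesn1 at 5.21 ± 1.35 and 9.94 ± 0.971 CPM per kb. The order in the middle was less clear, as neighbours such as Bax, Mdm2 and Trp53 in Epcam+ cells lay within or close to 1 SD of each other. Length is that of the GENCODE canonical transcript, which need not be the isoform the cells used.

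**Figure D1:**
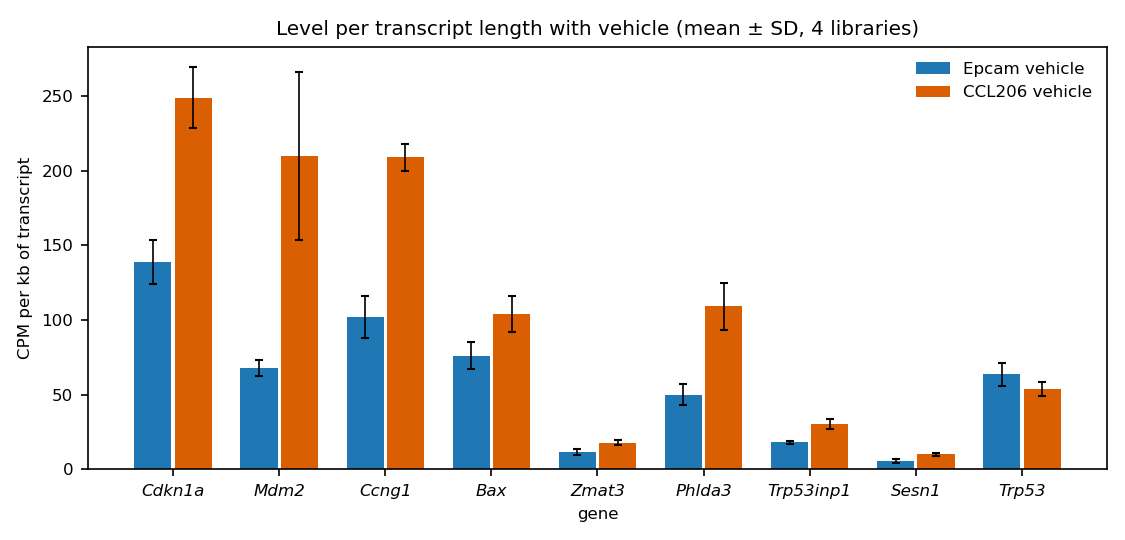
Bars give the mean level of each p53 pathway gene in vehicle-treated Epcam+ (blue) and CCL206 (orange) libraries in CPM per kb of transcript, with error bars of 1 SD over 4 libraries. Cdkn1a is highest in both populations (139 and 249 CPM per kb), Sesn1 is lowest, and Trp53 is the only gene whose Epcam+ bar is the taller one.

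The first comparison was between the populations. With vehicle, 8 of the 9 genes were lower in Epcam+ cells than in mitomycin-treated CCL206 fibroblasts, and only Trp53 was higher. All 9 differences passed the test (edgeR's quasi-likelihood test with Benjamini-Hochberg adjustment over 11805 genes), but so did 69.6% of all genes, 35.3% higher and 34.3% lower in Epcam+ cells. Over the 9 genes the median log2 fold change was -0.84, beside 0.02 over all genes tested. The call for Trp53 was lost without mouse 1 (adjusted p = 0.078) or mouse 2 (0.314), and that for Bax without mouse 2 (0.0866) or mouse 3 (0.0765).

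Among the genes that halt division, Cdkn1a had 254, 268, 242 and 307 CPM in the vehicle-treated Epcam+ libraries of mice 1 to 4 and 482, 534, 451 and 451 CPM in the CCL206 libraries of the same cultures. Every fibroblast library lay above every epithelial one, and the difference was -0.84 on the log2 scale with a standard error of 0.11 (adjusted p = 1.56e-07). Ccng1, the gene of cyclin G1, which recruits a phosphatase to MDM2, had 324, 335, 344 and 432 CPM against 748, 773, 717 and 703 CPM. Here too the groups were apart, by -1.03 on the log2 scale (standard error 0.09).

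Mdm2 encodes the ubiquitin ligase that marks p53 for degradation and closes the feedback loop. It had 200, 217, 194 and 230 CPM in Epcam+ cells and 792, 808, 487 and 513 CPM in fibroblasts. Of the 9 genes it had the largest difference between the populations, -1.60 on the log2 scale with a standard error of 0.12 (adjusted p = 3.74e-13). The fibroblast libraries with vehicle fell into 2 pairs, mice 1 and 2 above and mice 3 and 4 below, and the SD of this group (174 CPM) was the largest of the 9 genes relative to its mean.

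Bax encodes a pore-forming protein of the mitochondrial route to apoptosis. Its level was 72.4, 68.2, 69 and 87 CPM in Epcam+ cells and 84.3, 110, 104 and 107 CPM in fibroblasts, groups that overlapped, with a difference of -0.44 (standard error 0.15, adjusted p = 0.0117). Phlda3, whose product competes with AKT for membrane lipids, was at 105, 139, 106 and 107 CPM and 244, 295, 255 and 208 CPM, a change of -1.13 (standard error 0.16). Zmat3, a zinc finger protein that binds RNA, was at 69.9, 85.6, 90.8 and 107 CPM against 126, 134, 140 and 156 CPM, a change of -0.66 (standard error 0.12). For Phlda3 and Zmat3, unlike Bax, no epithelial library reached the lowest fibroblast library.

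Trp53inp1, a nuclear protein that favours p53 phosphorylation and takes part in autophagy, had 121, 103, 112 and 114 CPM in Epcam+ cells and 197, 215, 163 and 180 CPM in fibroblasts, a log2 fold change of -0.74 (standard error 0.12). Sesn1, which encodes sestrin 1, a protein that restrains mTORC1, had 14.7, 9, 17.4 and 13.1 CPM against 27, 22.5, 25.5 and 28.4 CPM, a change of -0.91 (standard error 0.21, adjusted p = 3.55e-04). Neither pair of groups overlapped. Trp53 was at 109, 138, 116 and 108 CPM in Epcam+ cells and 91.2, 92.2, 109 and 105 CPM in fibroblasts, groups that met at their edges, and the difference was 0.25 (standard error 0.10, adjusted p = 0.0368).

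The order of the populations held beyond vehicle. In all 16 cultures the Epcam+ library was below the CCL206 library for Cdkn1a, Mdm2, Ccng1, Bax, Zmat3, Phlda3 and Trp53inp1, and in 15 of 16 for Sesn1, while Trp53 was lower in Epcam+ cells in 5 of 16. As a median over the 16 cultures, the Epcam+ level was 48.6% of the fibroblast level for Cdkn1a (31.4 to 68.1%), 35.9% for Mdm2 (25.3 to 44.9%), 47.8% for Ccng1 (42.5 to 61.4%) and 108% for Trp53 (86 to 150%). These are values of cultures that share 4 mice and 1 fibroblast line. The share ran from 39 to 98.6% for Bax and from 32.6 to 107% for Sesn1.

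**Figure D2:**
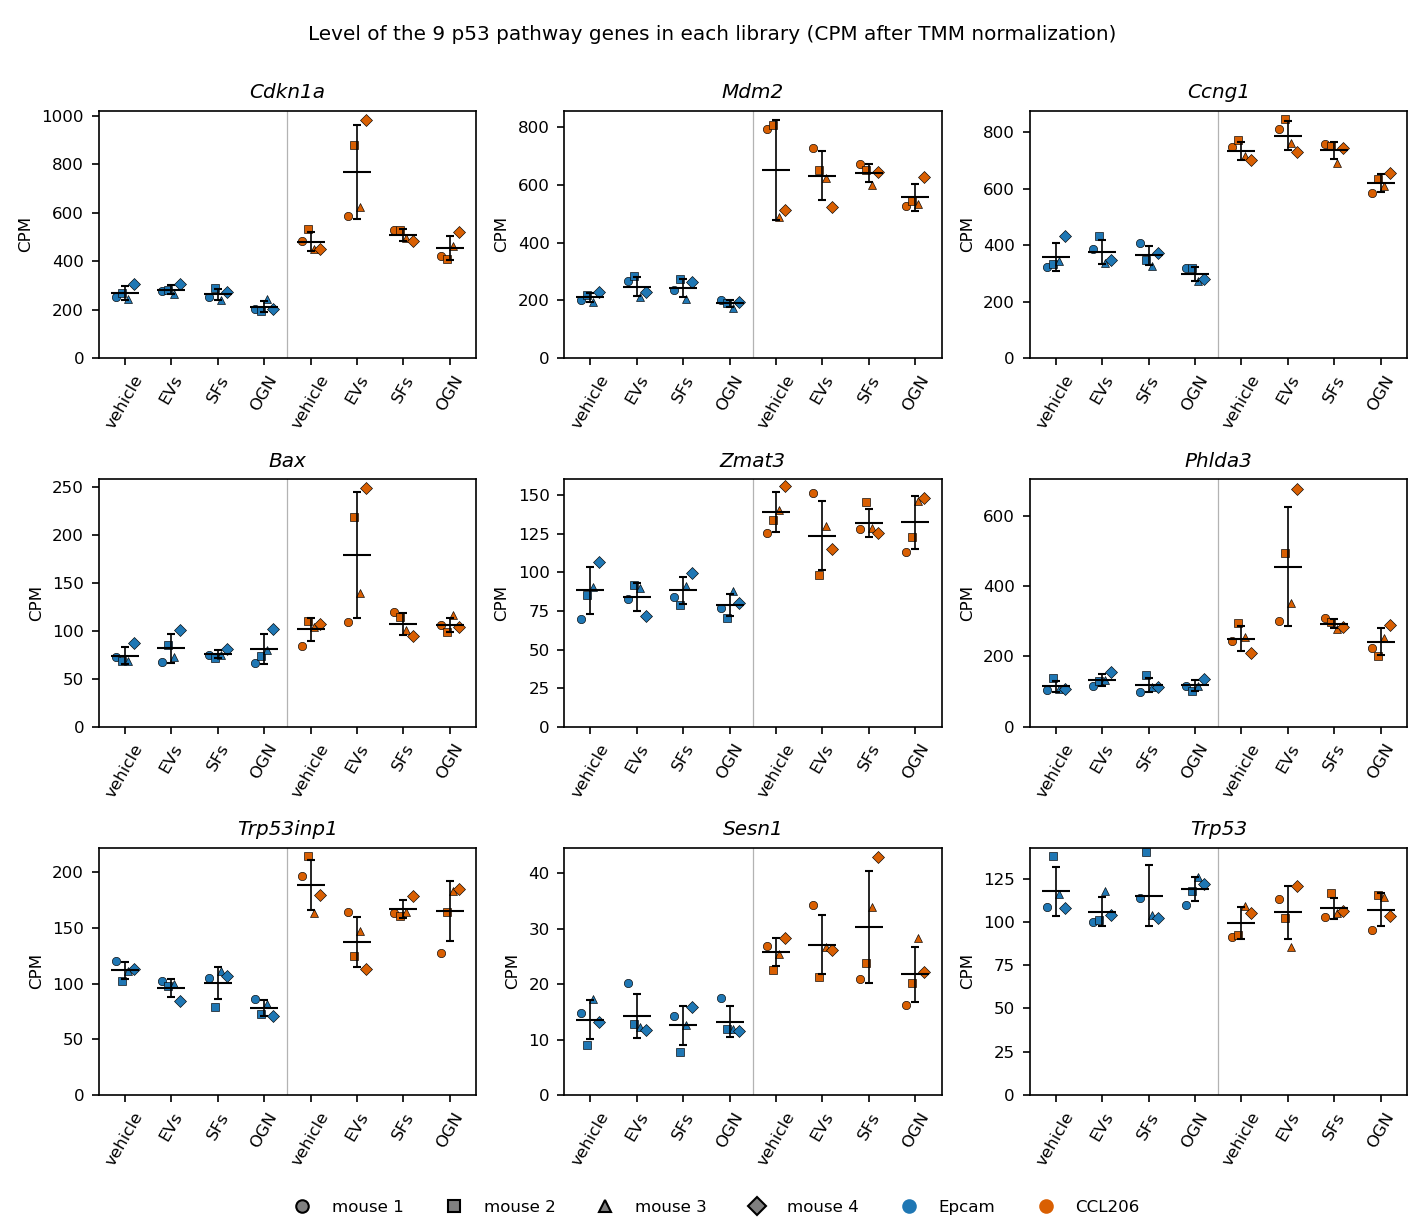
Each panel plots 1 gene in CPM after TMM normalization in the 32 libraries, with the 4 Epcam+ groups in blue on the left and the 4 CCL206 groups in orange on the right, and a symbol for each mouse. Horizontal bars are group means with error bars of 1 SD, and mice 2 and 4 with EVs in fibroblasts are the highest points for Cdkn1a (877 and 981 CPM), Bax and Phlda3.

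The other genes of the pathway did not all share that order. Of 33 further p53 targets 32 were present, and in vehicle-treated Epcam+ cells 10 were higher and 17 lower than in fibroblasts, with a median log2 fold change of -0.46, where 35.3% of all genes were higher and 34.3% lower. Of 9 that act in cell death, 7 were lower and none higher. Of 7 that act in metabolism and signalling, 5 were higher and 2 lower. Of 13 regulators and relatives of p53 (14 in the list), 4 were higher and 3 lower. All 10 proliferation genes that p21 is known to lower through the DREAM and RB complexes were higher in Epcam+ cells, with log2 fold changes from 1.08 to 2.97. Cell type, mitomycin C and the Cdkn1a level cannot be told apart here, and their parts were not tested.

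With OGN 2 of the 9 genes were lower in Epcam+ cells, Trp53inp1 and Cdkn1a, where 2.70% of 11716 genes passed the test (1.48% higher and 1.22% lower). Trp53inp1 had 86.1, 72.5, 81.4 and 71.3 CPM with OGN and 121, 103, 112 and 114 CPM with vehicle. All OGN libraries lay below all vehicle libraries, and the level was lower in each of the 4 mice. The log2 fold change was -0.53 with a standard error of 0.09 (adjusted p = 7.61e-04), equal to 0.694 of the vehicle level, and the call held in every alternative run for this comparison. None of those runs allowed for transcript length (6274 nt for Trp53inp1), so a part of length in this call was not tested. The 3 treatments of a population are compared with the same vehicle libraries.

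Cdkn1a had 205, 195, 246 and 201 CPM with OGN and 254, 268, 242 and 307 CPM with vehicle. The level fell in mice 1, 2 and 4 and was even in mouse 3, so the groups overlapped by 1 library. The log2 fold change was -0.33 (standard error 0.09, adjusted p = 0.038), or 0.797 of the vehicle level. This call rested on the design. Adjusted p rose to 0.072 when mouse was not a term, and it was 0.215 without mouse 1, 0.189 without mouse 2, 0.251 without mouse 4, 0.131 with only the 8 libraries compared and 0.0801 without the EV-treated libraries.

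Markers of other cells were also examined in these libraries. The 9 fibroblast markers present summed to 2050 to 2590 CPM with OGN and 2240 to 3110 CPM with vehicle, with none of the 9 at 0, 2 of them lower and 1 higher by the test. With the fibroblast marker level as a covariate, chosen after the values were seen, Cdkn1a had a log2 fold change of -0.27 (adjusted p = 0.0728) and Trp53inp1 one of -0.51 (adjusted p = 0.00188). Lyz2 was higher with OGN (0.69, adjusted p = 2.72e-05) and Cd68 was not called (5.76 CPM against 3.7 CPM). Its part in the result was not tested.

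Of the remaining genes, Ccng1 came nearest to the threshold with OGN in Epcam+ cells. It had 320, 320, 273 and 279 CPM against 324, 335, 344 and 432 CPM, groups that did not overlap, and a change of -0.27 (standard error 0.09, adjusted p = 0.159). Mdm2 had a log2 fold change of -0.15 (adjusted p = 0.451), Zmat3 of -0.14, Bax of 0.11, Phlda3 of 0.04, Sesn1 of -0.04 and Trp53 of 0.02. The mRNA of p53 itself was at 110, 118, 126 and 122 CPM with OGN, within the range of the vehicle libraries. Of the 32 other targets none passed edgeR's test, 5 had an unadjusted p under 0.05 and DESeq2 called 1.

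**Figure D3:**
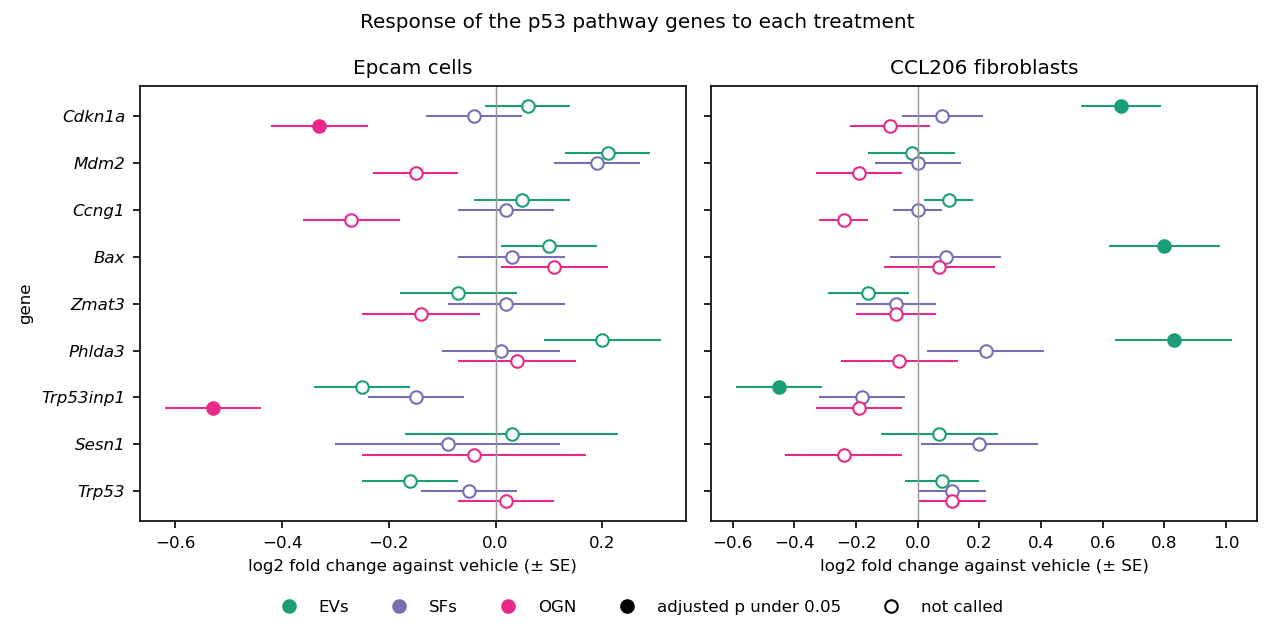
Points give the log2 fold change of each gene against vehicle with EVs (green), SFs (purple) and OGN (pink) in Epcam+ cells (left) and CCL206 fibroblasts (right), with bars of 1 standard error. Filled points have an adjusted p under 0.05: Cdkn1a and Trp53inp1 with OGN in Epcam+ cells, and Cdkn1a, Bax, Phlda3 and Trp53inp1 with EVs in fibroblasts. The panels have different horizontal scales.

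With EVs in fibroblasts 4 of the 9 genes passed the test, Cdkn1a, Bax and Phlda3 higher and Trp53inp1 lower, in a comparison in which 36.0% of 11689 genes did (19.8% higher and 16.2% lower). Cdkn1a had 587, 877, 624 and 981 CPM with EVs and 482, 534, 451 and 451 CPM with vehicle. Every EV library was above every vehicle library, and those of mice 2 and 4 stood furthest out. The log2 fold change was 0.66 (standard error 0.13, adjusted p = 0.00462).

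Bax showed the same ordering of mice, with 109, 220, 140 and 250 CPM against 84.3, 110, 104 and 107 CPM, and a change of 0.80 on the log2 scale (standard error 0.18, adjusted p = 0.00739). Phlda3 had 300, 494, 352 and 676 CPM against 244, 295, 255 and 208 CPM, a change of 0.83 (standard error 0.19, adjusted p = 0.00703). Trp53inp1 moved the other way, from 197, 215, 163 and 180 CPM to 164, 125, 147 and 114 CPM, a change of -0.45 (standard error 0.14, adjusted p = 0.0214). The groups overlapped for Bax and Trp53inp1, in each case through mouse 1 with EVs.

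The EV-treated fibroblast libraries carried a trend along transcript length that touches these 4 results. Spearman's rho over 11617 genes between transcript length and the deviation of a library from the vehicle mean was -0.287, -0.583, -0.364 and -0.623 in mice 1 to 4, so that short transcripts read higher and long ones lower, most in mice 2 and 4. In the other fibroblast libraries it lay between -0.244 and 0.113. In Epcam+ libraries, set against their own vehicle mean, it ran from -0.288 (OGN, mouse 4) to 0.330 (SFs, mouse 1). With OGN it was 0.162, -0.035 and 0.053 in mice 1 to 3. The fits of Epcam+ cells alone were not repeated with the trend taken out. The genes that rose were short (Bax 976 nt, Cdkn1a 1923 nt, Phlda3 2295 nt), with 5.72, 20.7 and 27.9% of genes shorter than them. Trp53inp1 was long (6274 nt), with 84.8% of genes shorter.

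With the trend taken out of every CCL206 library 23.2% of genes passed, and among the 9 these were Cdkn1a (log2 fold change 0.37, adjusted p = 0.00685) and Phlda3 (0.62, adjusted p = 0.00585). Bax fell to 0.19 (adjusted p = 0.18) and Trp53inp1 to -0.14 (adjusted p = 0.37). Without these libraries of mice 2 and 4, 5.48% of genes passed and Cdkn1a alone of the 9 was called (0.34, adjusted p = 0.046). None passed without mouse 2 (Cdkn1a adjusted p = 0.0653) or with only the 8 libraries compared (0.0552), and without mouse 4 only Cdkn1a did (0.50, adjusted p = 0.0429).

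**Figure D4:**
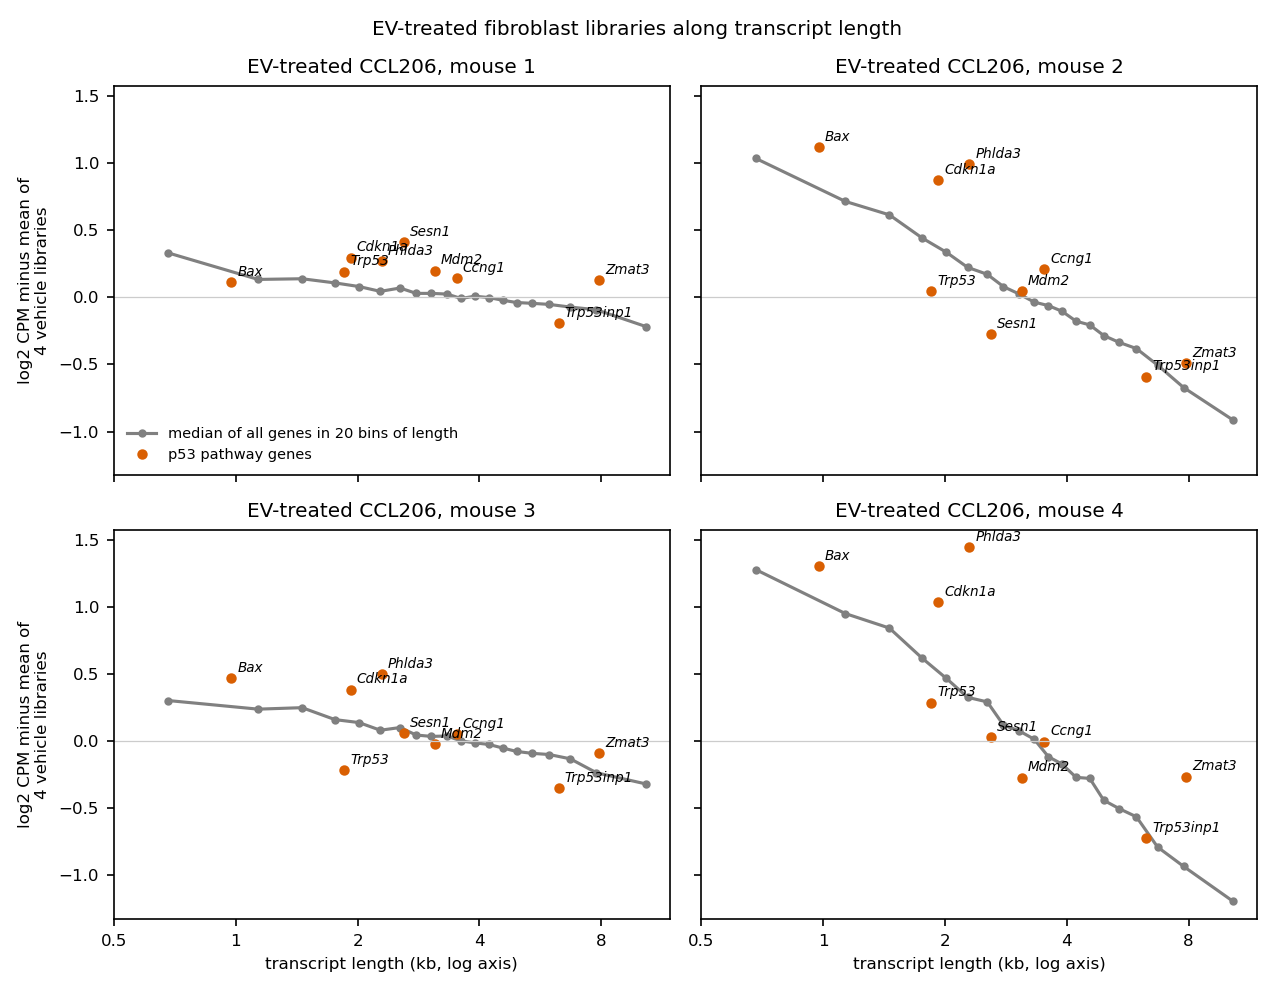
Each panel is 1 EV-treated CCL206 library, with transcript length in kb on a log axis and the difference of its log2 CPM from the mean of the 4 vehicle libraries on the vertical axis. Grey points are medians of all genes in 20 bins of length and orange points are the p53 pathway genes. The grey line is steepest in mice 2 and 4. There Trp53inp1 lies close to it or below, Bax above it, and Cdkn1a and Phlda3 further above it.

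The other 5 genes did not pass the test with EVs in fibroblasts. Ccng1 had 813, 849, 762 and 733 CPM, with a log2 fold change of 0.10 (adjusted p = 0.324). Mdm2 had 725, 652, 623 and 523 CPM, within the wide range of its vehicle libraries, and a change of -0.02. Sesn1 changed by 0.07, Trp53 by 0.08 and Zmat3 by -0.16. Of the 32 other targets 9 were called, where 36.0% of all genes were. Without the libraries of mice 2 and 4 there were 3 calls (5.48% of all genes), and after the length trend was removed 8 (23.2% of all genes).

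These 9 were led by Ak1, an adenylate kinase (log2 fold change 0.66, adjusted p = 0.00308), and Rps27l, a ribosomal protein paralog (1.01, adjusted p = 0.00338). In the arrest and feedback list 4 of 9 rose, beside 19.8% of all genes. They were Gadd45a, a stress gene of growth arrest (0.65), Ckap2 (0.41), Ppm1d, the phosphatase WIP1 that acts against p53 (0.55), and Sfn, or 14-3-3 sigma (0.91). Among the cell death genes Apaf1, the core of the apoptosome, fell (-0.51), and in the repair list Mgmt rose (0.64) and Rrm2b fell (-0.79). Both Ak1 and Rps27l were still called without mice 2 and 4, together with Dram1, which was lower, and none of the other 7 was. With the length trend removed Ak1 (0.42, adjusted p = 0.00266), Ckap2, Ppm1d, Mgmt and Rrm2b were still called. Rps27l (0.19, adjusted p = 0.121), Gadd45a, Sfn and Apaf1 were not, and the other 3 calls of that fit were Aen, Ercc5 and Dram1.

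Of the 13 regulators of p53, 2 rose and 5 fell with EVs in fibroblasts, where 19.8% of all genes rose and 16.2% fell. The damage-sensing kinase gene Atm (-1.16), the kinase gene Hipk2 (-0.90), the p53-binding Trp53bp1 (-0.76) and Mdm4 (-0.58), a partner of MDM2, were the 4 with the smallest p. Of these, Atm and Hipk2 were called without mice 2 and 4, and with the length trend removed Atm was called and the other 3 were not. Among the 5 genes present of a list of other CDK inhibitors and Lmnb1, Cdkn2d (0.79) and Cdkn1c (0.86) rose and Cdkn1b (-0.36) fell, with 0 calls by edgeR in either alternative. Of the 10 proliferation genes 4 rose, among them Cdk1 (0.65), Birc5 (0.95) and Ccnb2 (0.57), and Mki67 fell (-0.58), but without mice 2 and 4 none was called, and with the trend removed only Cdk1.

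In Epcam+ cells none of the 9 genes passed edgeR's test with EVs, where 0.888% of all genes passed, although 2 had an unadjusted p under 0.05. Mdm2 had 266, 284, 211 and 229 CPM with EVs against 200, 217, 194 and 230 CPM, a log2 fold change of 0.21 (adjusted p = 0.31). Trp53inp1 had 102, 97.8, 99.3 and 84.6 CPM, just below the lowest vehicle library (103 CPM), and a change of -0.25 (adjusted p = 0.258). The change of Phlda3 was 0.20 (adjusted p = 0.552) and that of Cdkn1a 0.06. DESeq2 also called none. The fibroblast markers of these libraries summed to 3160 to 3740 CPM, above the 2240 to 3110 CPM of vehicle, and 4 of the 9 were higher by the test; with their level as a covariate the estimate was -0.23 for Cdkn1a (adjusted p = 0.772), 0.04 for Mdm2 (0.976) and -0.34 for Trp53inp1 (0.712).

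Of the 32 other targets Dram1, a lysosomal membrane protein of autophagy, was the only one called with EVs in Epcam+ cells, beside 0.888% of all genes. It had 243, 211, 189 and 211 CPM against 277, 270, 254 and 304 CPM, with no overlap and a log2 fold change of -0.39 (adjusted p = 0.0138). The call was lost when mouse was not a term (adjusted p = 0.134), without mouse 1 (0.0593), mouse 2 (0.0545) or mouse 3 (0.228), and with the fibroblast covariate (0.645).

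With SFs none of the 9 genes passed the test in either population by edgeR or DESeq2. In Epcam+ cells, where 0.230% of all genes passed, log2 fold changes ran from -0.15 for Trp53inp1 to 0.19 for Mdm2 (234, 274, 204 and 263 CPM, higher than vehicle in 4 of 4 mice, adjusted p = 0.55), and 1 gene had an unadjusted p under 0.05. The fibroblast markers of these libraries summed to 2600 to 3510 CPM, beside 2240 to 3110 CPM with vehicle, with 8 of 9 estimates above 0 and none called by edgeR (6 at an unadjusted p under 0.05). With their level as a covariate the estimate for Mdm2 was 0.09 (adjusted p = 0.998). In fibroblasts, where 0.0599% passed, they ran from -0.18 to 0.22, with 0 genes at an unadjusted p under 0.05. None of the 32 other targets passed in either population, by edgeR or DESeq2, with 6 and 2 at an unadjusted p under 0.05.

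With OGN in fibroblasts 4.56% of all genes passed and none of the 9 did by edgeR, whereas 1 had an unadjusted p under 0.05 and DESeq2 called it. This gene was Ccng1, with 585, 636, 611 and 657 CPM against 748, 773, 717 and 703 CPM. The groups did not overlap and the level was lower in 4 of 4 mice, and its change was -0.24 on the log2 scale (standard error 0.08, adjusted p = 0.121). Adjusted p was 0.00735 by DESeq2, 0.024 with only the 8 libraries compared, 0.00519 without the EV-treated libraries and 0.048 with the length trend removed, and 0.153 to 0.487 with 1 mouse left out. In Epcam+ cells of the same cultures, set against their own vehicle libraries, the log2 fold change of Ccng1 was -0.27 and not called. By mouse it was -0.02, -0.07, -0.33 and -0.63 there, and -0.36, -0.28, -0.23 and -0.10 in fibroblasts.

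Mdm2 had 525, 542, 534 and 626 CPM with OGN in fibroblasts, below vehicle in mice 1 and 2 and above it in mice 3 and 4, and a log2 fold change of -0.19 (adjusted p = 0.561). Cdkn1a had 422, 409, 463 and 518 CPM, a change of -0.09 (adjusted p = 0.848). Trp53inp1 had 128, 165, 183 and 185 CPM and a change of -0.19 (adjusted p = 0.573). For all 3 the sign was split between mice.

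Some markers of other cells were higher with OGN in the same fibroblast libraries. Of the 14 AT2 and epithelial markers 10 had estimates above 0 and 4 below. By the test Sftpa1 (0.83, adjusted p = 0.0149) and Sftpd (0.88, adjusted p = 0.046) were higher and none was lower. Lyz2 was higher too (1.03, adjusted p = 0.00741). The 14 summed to 2380 to 4740 CPM with OGN (mean 3450) and 2030 to 5230 CPM with vehicle (mean 3490). Sftpc, not called, had a mean of 1250 CPM with OGN and 1780 CPM with vehicle. Without the EV-treated libraries 7 of the 14 were higher and 1 lower. Their part in the OGN results in fibroblasts was not tested.

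Among the other lists 1 of the 32 targets passed with OGN in fibroblasts, beside 4.56% of all genes: Pmaip1, which encodes the BH3-only protein NOXA. It had 20.2, 23.2, 28.5 and 24.6 CPM against 41, 48.7, 34.3 and 36.7 CPM, a log2 fold change of -0.72 (adjusted p = 0.0147). Leaving out mouse 1 or mouse 2 gave 0.122 and 0.135. Of the 10 proliferation genes Top2a, DNA topoisomerase II alpha, was lower, with 193, 185, 181 and 175 CPM against 302, 279, 226 and 222 CPM (-0.48, adjusted p = 0.00322, and 0.0873 without mouse 2). Without the EV-treated libraries, where 15.1% of genes passed, 9 of the 32 targets did: 2 were higher and 7 lower (8.24% and 6.90% of all genes), Pmaip1 among the latter. Of the p53 regulators 3 were then lower, and of the proliferation genes 3.

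Responses of fibroblasts and Epcam+ cells were set against each other by an interaction term fitted to all 32 libraries. With EVs 23.8% of 11805 genes passed (11.8% with the higher response in fibroblasts and 12.0% with the lower), and of the 9 Cdkn1a and Bax did. The response of Cdkn1a was higher in fibroblasts by 0.58 on the log2 scale (standard error 0.17, adjusted p = 0.0176), with 0.17, 0.64, 0.34 and 1.12 in the 4 mice. That of Bax was higher by 0.67 (standard error 0.22, adjusted p = 0.0279), with 0.47, 0.66, 0.35 and 1.01. The difference for Phlda3 was 0.60 (adjusted p = 0.0578). Both calls were lost without mouse 2 or mouse 4. Without the EV libraries of mice 2 and 4 Cdkn1a stood at 0.27 and Bax at 0.18, and with the length trend removed at 0.29 and -0.05.

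With OGN 0.551% of genes differed between the populations and none of the 9 did by edgeR or DESeq2, or at an unadjusted p under 0.05. Cdkn1a, which passed the test in Epcam+ cells and not in fibroblasts, had a difference of 0.24 (standard error 0.17, adjusted p = 0.942). Trp53inp1 had one of 0.33 (standard error 0.17, adjusted p = 0.768). For SFs the share of all genes was 0.00%, with 590 genes at an unadjusted p under 0.05, none of the 9 among them.

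The genes whose level was most like that of Cdkn1a over the 16 libraries of a population differed between the populations. In Epcam+ libraries they were Fstl1 (Pearson r of log2 CPM 0.930), Sdc2 (0.921), Cald1 (0.911), Col6a1 (0.909) and Col6a2 (0.896). Col6a1 and Col6a2 are on the fibroblast marker list. Among the p53 genes Mdm2 (0.656) and Ccng1 (0.632) ranked highest there, at places 306 and 382 of 11715. In CCL206 libraries they were Mrpl52 (0.982), Phlda3 (0.975), Tbca (0.969), Rps20 (0.969) and Cops9 (0.964), with Bax at 0.919 (place 308 of 11688). The points share 4 mice, 4 treatments and, in fibroblasts, the EV-treated libraries with the length trend.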

How the data were processed

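Bulk RNA-seq was measured in 32 libraries. The authors deposited raw counts per gene, made after trimming with Trimmomatic 0.30; the labels name GRCm39 and the study's methods GRCm38, and aligner, counter and strand setting are not given in the sources used here. Cdkn1a, Trp53, Ccng1, Bax, Mdm2 and Sesn1 overlap genes on the opposite strand (Dino, Wrap53 and Nudcd2 among them). Without strand, reads of the shared stretches cannot be assigned to either gene. Bax and Sesn1 also overlap genes on their own strand, which strand would not resolve. Trp53 has a pseudogene copy, Trp53-ps. Every gene of the table had at least 1 count in every library (660 genes reach that minimum), so an unstated filter had been applied.

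Counts were analysed with edgeR 4.0.16 (R 4.3.3): TMM normalization, filterByExpr, quasi-likelihood F test, Benjamini-Hochberg adjustment over all genes tested, threshold 0.05. Each population's 16 libraries were fitted with treatment and mouse, as the study's paired design does. All 32 libraries entered the fits of the populations and of differences in response. The labels give the mouse of each culture: same-mouse libraries deviated together weakly and on average (mean r 0.087 to 0.224 across groups, -0.070 to -0.030 between mice). Single pairs overlapped, from -0.055 to 0.489 within a mouse and from -0.445 to 0.485 between mice. No 2 replicate libraries agreed within sampling noise (48 pairs). Standard errors were obtained from the fold change and its F statistic. CPM per kb used GENCODE vM39 lengths, available for 98.3% of genes. The length trend was removed with a spline of 4 degrees of freedom, only in fits of fibroblasts and of differences in response. Alternatives were DESeq2 1.42.0, its size factors, no filter, no mouse term, leaving out mice or libraries, and only the libraries compared. The scripts were tested on simulated data without a mouse effect or length trend, for the OGN and population comparisons only. That run did not cover the EV comparisons, the removal of the length trend, the fibroblast covariate or DESeq2. Low library totals limit precision through counting error, and any further part of depth was not tested. Among the fibroblast groups the EV-treated one had the lowest median total (3887814.5 counts, beside 9579315.5 with vehicle).

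All 9 genes are named; from other lists, up to 4 genes with the smallest p among those past the threshold. The genes and lists were chosen with earlier results of these data known. Genes most like Cdkn1a are the 5 with the highest Pearson correlation of log2 CPM (prior count 2).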

Additional observations from a re-analysis of the deposited data

Results flagged for a closer look

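In 4 of the 72 sets of 4 libraries (9 genes in 8 groups), 1 library stood apart from the other 3 by Dixon's gap ratio at its 95% critical value. Chance gives about 1 in 20. In OGN-treated fibroblasts the library of mouse 4 had 626 CPM of Mdm2 and the others 525 to 542 CPM (gap ratio 0.83). In vehicle-treated Epcam+ cells that of mouse 2 had 139 CPM of Phlda3 and the others 105 to 107 CPM (0.93). For Sesn1 mouse 1 was high in 2 Epcam+ groups, with 20.3 CPM against 11.7 to 12.8 CPM with EVs (0.875) and 17.4 CPM against 11.6 to 12 CPM with OGN (0.929).

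The response to EVs differed between the populations for 2 of the 9 genes by the interaction test, where 23.8% of 11805 genes passed (11.8% higher in fibroblasts). It was higher in fibroblasts by 0.58 on the log2 scale for Cdkn1a and by 0.67 for Bax. Neither difference passed without mouse 2, without mouse 4, or with the transcript length trend removed (0.29 and -0.05).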

How the results depend on the processing

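Under the alternatives, 84 counts of the 9 genes called stayed within 1.5 times of the value given and 20 did not. With OGN in Epcam+ cells the count of 2 was 1 without the replicate block (the mouse term), with only the 8 libraries compared, without the EV-treated libraries and with the fibroblast covariate, and 1 to 2 with 1 mouse left out. With EVs in fibroblasts the count of 4 was 0 with only the 8 libraries, 1 without the EV-treated CCL206 libraries of mice 2 and 4, 2 with the length trend removed, and 0 to 4 with 1 mouse left out. With OGN in fibroblasts the count of 0 was 1 by DESeq2, with only the 8 libraries, without the EV-treated libraries and with the length trend removed. For the difference in EV response the count of 2 was 0 without the libraries of mice 2 and 4 or with the trend removed, and 0 to 3 with 1 mouse left out.

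Estimates that changed sign belonged to genes not called, except Bax in the difference of EV response (-0.05 with the trend removed). With EVs in fibroblasts Mdm2 was 0.09, Zmat3 0.04 and Trp53 -0.02 without the libraries of mice 2 and 4, and Zmat3 0.27, Sesn1 -0.05 and Trp53 -0.22 with the trend removed; with 1 mouse left out Mdm2 ranged from -0.15 to 0.08 and Sesn1 from -0.02 to 0.11. With OGN in Epcam+ cells Sesn1 ranged from -0.16 to 0.17, Trp53 from -0.03 to 0.11 and Phlda3 from -0.06 to 0.19, and in fibroblasts Cdkn1a from -0.17 to 0.01. With the fibroblast covariate Cdkn1a with EVs in Epcam+ cells was -0.23. The mouse term changed no other call of the 9 genes. The causes were not tested.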
